A study of Mus musculus with 8 samples.

Results

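The genes described here are the 109 genes whose signal was lower by 4-fold or more in pro-B(-) cells given Lmo2 than in the same cells given the vector without it. Pro-B(+) and pro-B(-) are lines of Ebf1-deficient progenitors, sorted for absence of lineage markers out of fetal liver, so that every group lacks EBF1, the transcription factor that starts the B-cell programme. Pro-B(+) cells were maintained with OP9, a bone-marrow stromal line, and keep the ability to make T cells under Notch stimulation. Pro-B(-) cells were maintained with TD7, a thymic stromal line, and have lost it. Both lines grew with SCF, Flt3L and IL-7. The pro-B(-)/Mock and pro-B(-)/LMO2 groups are pro-B(-) cells that carry a lentiviral vector marked with rat CD2, the former empty and the latter with Lmo2. Each of the 4 groups had 2 one-colour whole-genome arrays. Each parental group is 1 cell line on its own stromal support, and the stromal cells and the time after infection of the transductants are not given in the sources used here.

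The members were chosen by their measured values. From the deposited values, 1 probe stood for each gene, the one with the highest mean over the 8 arrays. Of 20125 named genes, 12466 stood well above background in each pro-B(-)/Mock array, and 115 of these (0.923%) had a log2 difference of -2 or below between pro-B(-)/LMO2 and pro-B(-)/Mock. Genes of the Hox, collagen, chemokine, chemokine receptor and integrin families, with Erg, Bmp7, Bcl11b and Cd5, were left out by name, which removed 6 genes and left 109. The difference that chose the genes is therefore given as a description, with no test. The question put to each member was whether pro-B(+) cells also had less of it than pro-B(-) cells, a comparison of means over 4 arrays that the difference did not use. Its standard errors came from a fit of all 8 arrays, and so took in the spread of the arrays that chose the genes.

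LMO2 is a LIM-domain protein that does not bind DNA itself. It bridges TAL1 or LYL1, E proteins, GATA factors and LDB1 into complexes that sit at E-box and GATA sequences in blood stem and progenitor cells, and the same complexes can raise some genes and hold others down. Its loss stops the formation of blood cells in the embryo, and its forced expression in T-cell progenitors is a known route to T-cell leukaemia.

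Levels are normalized signals on the log2 scale, in which 0 is the 75th percentile of an array's signals. The probe of the deleted gene, Ebf1, read between 1.12 and 1.53 on every array; where it lies relative to the deletion is not given in the sources used here, so it checks nothing. The probe of Lmo2 read 0.63 and 0.63 in pro-B(-) and 2.09 and 2.10 in pro-B(+). It read 0.35 and 0.35 in pro-B(-)/Mock and 0.99 and 0.93 in pro-B(-)/LMO2. Its signal was thus highest in pro-B(+), and pro-B(-)/LMO2 lay above pro-B(-)/Mock. Whether this probe reads the copy carried by the vector is not given in the sources used here, so the level of the transduced gene was not tested. Of 12 pro-B markers, which include the members Rag1 and Rag2, 9 or 10 were well above background in every group. Flt3 read highest of them on every array and so weighs most in their sum. It read 4.20 and 4.15 in pro-B(-)/Mock and 3.70 and 3.73 in pro-B(-)/LMO2, while others, such as Kit (log2 difference 1.545), went the other way. The summed linear signal of the list, in units of the 75th percentile, was 32.3 to 32.4 in pro-B(-), 29.8 to 30.0 in pro-B(+), 29.3 to 30.7 in pro-B(-)/Mock and 25.1 to 25.4 in pro-B(-)/LMO2. The summed signal of 10 stromal markers was 8.0 to 8.20, 19.3 to 20.05, 23.3 to 24.2 and 32.4 to 33.3 in the same order, with Dcn above background on no array. Fn1 read highest of these markers on every array and so weighs most in the sum. Between pro-B(-)/LMO2 and pro-B(-)/Mock their log2 differences ran from 1.54 (Acta2) to -0.75 (Postn). Only Postn and Col3a1 (-0.58) were below 0. The part of the stromal signal in the results below was not tested. The 4 parental arrays lay on 1 slide and the 4 transductant arrays on another, so each comparison was made within a slide, but a shift between parental and transduced cells and a shift between slides cannot be told apart. In bulk RNA, fewer cells that express a gene and less RNA per cell cannot be told apart either.

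Among the 109 members the log2 difference between pro-B(-)/LMO2 and pro-B(-)/Mock ran from -5.49 to -2.0, with a median of -2.70, against a median of -0.05 over the 12466 genes that could have been chosen. In 57 members the signal was still well above background on both pro-B(-)/LMO2 arrays, in 10 on 1 of them and in 42 on neither. For these 42 the size is a lower limit, computed against the lowest signal well above background on each array. It ranged from at least 1.14-fold (Tff1) to at least 24.0-fold (B4galt4), and 17 of the 42 were lower by at least 4-fold on that limit. Other probes were counted only if they passed the background filter that the members had to pass with the empty vector. Dimmer ones, such as those of Obox3 and Vipr2, were left out, so the count does not cover every other probe. Of 35 that passed, for 28 of the members, all 35 were lower with Lmo2, 32 of them by 2-fold or more and 21 by 4-fold or more. The exceptions were a probe of Gtf2ird1 at -0.58 and both other probes of Mapk8, at -0.17 and -0.14.

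The rule's threshold passed through a continuous range of values. The last members inside it were Mapk8, a stress-activated kinase, Phf19, a Polycomb-associated protein, and Speer1, with deposited log2 differences of -2.0049, -2.0015 and -2.001. The nearest genes outside were Speer2 at -1.9911, Gm6460 at -1.991 and Rasgef1b at -1.9803. Mapk8 read -2.40 and -2.42 in pro-B(-), -2.63 and -2.55 in pro-B(+), -2.38 and -2.52 in pro-B(-)/Mock and -4.17 and -4.74 in pro-B(-)/LMO2. Phf19 read -0.86 and -0.84, -0.64 and -0.59, -3.76 and -3.64, and -6.20 and -5.20 in the same order, so that most of its distance from the parental line was already there with the empty vector.

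Among the members measured above background on all 4 transductant arrays, Cenpb and Hnrnpll had the lowest values of the difference. Cenpb, which encodes the protein that binds the CENP-B box of centromeric repeats, read 0.65 and 0.42 in pro-B(-), 1.21 and 1.14 in pro-B(+), -0.41 and -0.44 in pro-B(-)/Mock and -4.82 and -5.10 in pro-B(-)/LMO2. It was thus 23.3-fold lower with Lmo2, and a second probe gave a log2 difference of -4.48. Hnrnpll, a regulator of the alternative splicing of CD45, read 2.19 and 2.18, 2.45 and 2.44, 1.71 and 1.75, and -2.16 and -2.15, which is 14.7-fold lower. In both genes the pro-B(-)/LMO2 arrays stood alone, far below the other 6 arrays.

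Other members with low values did not share a pattern in the parental lines. Igf1, the insulin-like growth factor that stromal and myeloid cells secrete, read 2.06 and 1.93 in pro-B(-), -0.24 and -0.27 in pro-B(+), 0.99 and 1.04 in pro-B(-)/Mock and -2.46 and -2.55 in pro-B(-)/LMO2, and 3 more probes of it gave log2 differences of -4.36, -3.56 and -1.84. Frmd5, a FERM-domain protein of cell contacts, read 0.70 and 0.73, -3.23 and -3.16, -0.37 and -0.30, and -3.77 and -3.79, so that pro-B(+) and pro-B(-)/LMO2 were both far below the other groups. Mfsd13a, a predicted membrane transporter, read 0.02 and -0.07, 0.27 and 0.29, -2.47 and -2.40, and -5.56 and -5.67, and was already low with the empty vector. Ninl, a centrosomal protein, stayed between -0.85 and -0.09 on the other 6 arrays and read -3.98 and -4.04 with Lmo2.

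Where the signal was lost into background with Lmo2, the fitted differences were lowest in Gpr119, B4galt4, Zfp286, Reep1 and Ect2l, but the sizes there are limits and have no such order: that of Syce2 (at least 16.2-fold) was above those of Gpr119, Zfp286, Reep1 and Ect2l. Gpr119, a receptor for lipid amides, read -1.53 and -1.52 in pro-B(-), -2.80 and -2.86 in pro-B(+), -2.17 and -2.07 in pro-B(-)/Mock and -6.84 and -8.38 in pro-B(-)/LMO2, at least 14.9-fold lower than with the empty vector. B4galt4, a galactosyltransferase that builds poly-lactosamine chains, read -0.43 and -0.50, -0.65 and -0.64, -1.47 and -1.40, and -6.58 and -7.10. Its other probe gave a log2 difference of -4.55. Zfp286, a zinc-finger gene, read -2.63 and -2.59, -1.86 and -1.93, -2.91 and -2.62, and -7.87 and -8.27, at least 9.50-fold lower. Reep1, which shapes the endoplasmic reticulum, read -2.02 and -2.02, 0.56 and 0.58, -2.93 and -2.89, and -7.73 and -8.12, at least 8.61-fold lower. Ect2l read -5.03 and -5.14, -5.94 and -6.10, -3.39 and -3.33, and -8.08 and -8.52, at least 6.29-fold lower, and here the empty vector alone stood above the other groups.

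**Figure D1:**
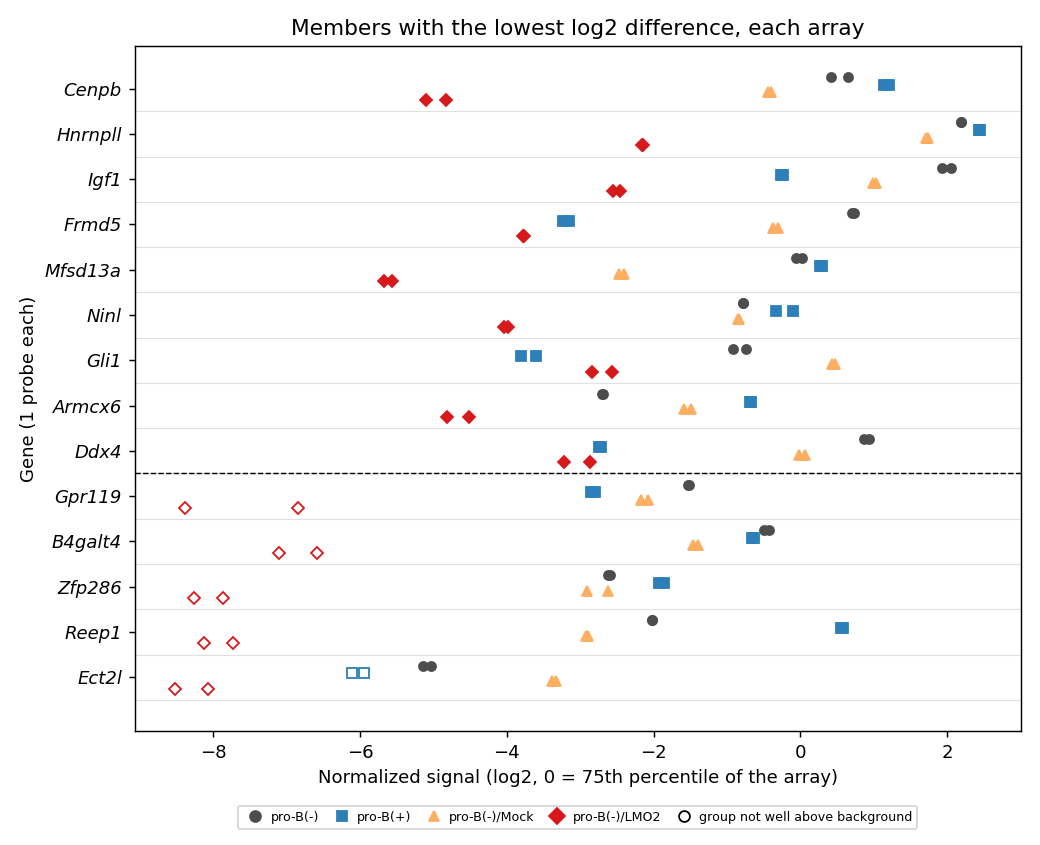
Normalized signal (log2, horizontal axis) on each of the 8 arrays for 14 members, with 1 row per gene and 2 points per group. The 9 genes above the dashed line were measured in all 4 transductant arrays and the 5 below it were not well above background with Lmo2 (open symbols); in every row the pro-B(-)/LMO2 points lie far to the left of pro-B(-)/Mock, whereas the pro-B(+) points lie on either side of pro-B(-).

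The parental lines gave members in both directions. Of the 109 members, 96 were tested, those well above background in both arrays of either parental line. Pro-B(+) was lower in 39 of them (40.6%, against 28.8% of the 12166 genes tested that could have been chosen) and higher in 38 (39.6%, against 23.3%), and 19 were not called at an adjusted p under 0.05. The median difference was -0.01, against -0.03 over those genes, but the differences were wide in both directions: the median of their absolute size was 0.92, against 0.18. By 2-fold or more on the fitted difference, 22 members were lower (22.9%, against 2.24%) and 22 were higher (22.9%, against 8.01%). With lower limits in place of differences against background these were 18 and 22, and among members measured on all 4 parental arrays 15 and 20. A fit of the 4 parental arrays alone called 43 lower and 41 higher. Scaling each array to its median, which moved all genes by -0.28, gave 45 lower and 31 higher, and 31 and 18 by 2-fold or more. The shares over all genes given above belong to the main fit. They do not carry over to the counts with limits, the narrower filter, the parental arrays alone or median scaling, for which none is given.

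The counts were near each other among well-measured genes too. On all 4 parental arrays 86 members were well above background, of which 31 were lower, 36 higher and 19 not called. The shares of all genes under that filter are not given. The 8 that were above background on both pro-B(-) arrays but not on both pro-B(+) arrays were all called lower, and the 2 with the opposite pattern were both called higher, as such a filter requires. With normexp background correction, which adds an offset to every signal, 14 members were lower by 2-fold or more (1.22% of the genes) and 17 higher (4.13%). The number of members depended on the same choice: with normexp 22 of the 109 genes passed the threshold, although all 109 stayed below 0, between -3.36 and -0.33.

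**Figure D2:**
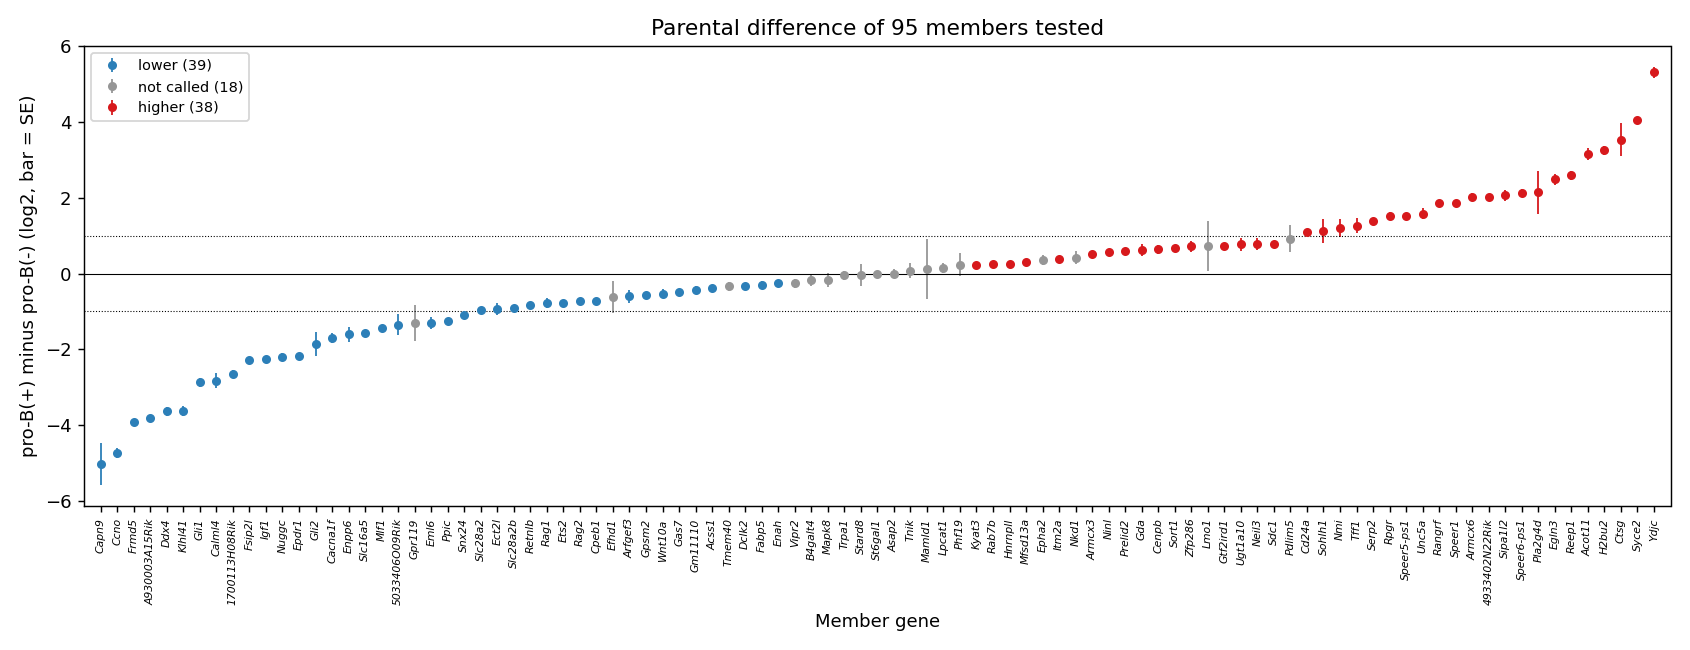
Difference between pro-B(+) and pro-B(-) (log2, vertical axis, bars are standard errors) for 95 of the 96 members tested, in rising order. Blue points are the 39 members lower in pro-B(+), red points the 38 that were higher and grey points 18 of those not called; dotted lines mark a 2-fold difference, and the values run from -5.02 (Capn9, in background in pro-B(+)) to 5.31 (Ydjc).

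The fitted differences were lowest in Capn9, Ccno, Frmd5, A930003A15Rik, Ddx4, Klhl41, Gli1 and Calml4. Capn9, Klhl41 and Calml4 were in background in pro-B(+), so their folds are limits, and those of Klhl41 and Calml4 lie below the measured falls of 1700113H08Rik (6.31-fold), Fsip2l (4.82-fold), Igf1 (4.75-fold) and Epdr1 (4.50-fold). Capn9, a calpain protease of the digestive tract, read -1.60 and -1.81 in pro-B(-), -7.61 and -5.83 in pro-B(+), -3.18 and -3.50 in pro-B(-)/Mock and -5.85 and -5.67 in pro-B(-)/LMO2, and was at least 16.4-fold lower in pro-B(+) (log2 -5.02, SE 0.55, adjusted p = 9.86e-04). Ccno, a cyclin needed for multiciliated cells, read 0.65 and 0.62, -4.11 and -4.08, -0.28 and -0.28, and -2.57 and -3.02, a 26.5-fold fall in pro-B(+) (log2 -4.73, SE 0.14, adjusted p = 5.38e-06). The long non-coding RNA A930003A15Rik read -0.27 and -0.47, -4.19 and -4.17, 0.12 and 0.15, and -2.47 and -2.39, a 14.0-fold fall. In Ccno and A930003A15Rik the pro-B(+) arrays lay below those with Lmo2.

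Frmd5 (described above) was 15.0-fold lower in pro-B(+) (log2 -3.91, SE 0.043, adjusted p = 3.99e-07), and a further probe gave -4.23. Klhl41, a kelch protein of muscle, read -3.70 and -3.92, -7.62 and -7.25, -3.98 and -3.98, and -6.47 and -6.54, at least 3.82-fold lower in pro-B(+) and at least 4.10-fold lower with Lmo2. Calml4, a calmodulin-like protein of brush borders, read -4.18 and -4.58, -7.17 and -7.25, -5.29 and -5.16, and -7.67 and -7.20, and was above background in neither pro-B(+) nor pro-B(-)/LMO2. Also lower by 2-fold or more were 1700113H08Rik, Fsip2l, Igf1, Epdr1, Cacna1f, Slc16a5, Mlf1, 5033406O09Rik, Ppic and Snx24. Nuggc, Gli2, Enpp6 and Eml6 were in background in pro-B(+) and lower by at least 1.36-fold, 1.49-fold, 1.54-fold and 1.98-fold. Lower by under 2-fold were Slc28a2, Ect2l, Slc28a2b, Retnlb, Rag1, Ets2, Rag2, Cpeb1, Arfgef3, Gpsm2, Wnt10a, Gas7, Gm11110, Acss1, Dclk2, Fabp5 and Enah.

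In Gli1, A930003A15Rik, Ccno and Slc16a5, measured in every group, both pro-B(+) arrays lay below both pro-B(-)/LMO2 arrays. The empty vector had a mean below pro-B(-) in 26 of the 39 lower members, but also in 21 of the 38 higher ones, and in 62 of all 109 members. The levels of pro-B(-)/Mock and pro-B(-) are set side by side with no test, because the former enters the difference that chose the genes.

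The fitted differences were highest in Ydjc, Syce2, Ctsg, H2bu2, Acot11, Reep1, Egln3 and Pla2g4d, the last of which has only a limit, below the rises of Sipa1l2 (4.18-fold), 4933402N22Rik (4.08-fold), Armcx6 (4.05-fold) and Speer6-ps1 (at least 4.0-fold). Ydjc, a deacetylase-like protein, read -2.85 and -2.99 in pro-B(-), 2.34 and 2.44 in pro-B(+), -5.06 and -4.86 in pro-B(-)/Mock and -7.84 and -7.46 in pro-B(-)/LMO2, a 39.6-fold rise in pro-B(+) (log2 5.31, SE 0.14, adjusted p = 4.4e-06). Its signal was thus high in pro-B(+), lower with the empty vector than in the parent and in background with Lmo2. H2bu2, a histone H2B gene, read -3.58 and -3.93, -0.56 and -0.45, -4.36 and -4.36, and -6.47 and -6.61, a 9.49-fold rise. Acot11, an acyl-CoA thioesterase of brown fat, read -2.99 and -2.71, 0.33 and 0.27, -2.96 and -3.11, and -5.23 and -4.86, an 8.89-fold rise.

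Reep1 rose 6.01-fold (log2 2.59, SE 0.12, adjusted p = 3.35e-05). Egln3, a prolyl hydroxylase that marks HIF for destruction, read -2.35 and -2.37, 0.09 and 0.17, -5.01 and -5.06, and -8.04 and -8.49, a 5.60-fold rise in pro-B(+). Pla2g4d, a cytosolic phospholipase A2, read -6.04 and -7.84, -4.70 and -4.90, -4.28 and -4.37, and -8.02 and -8.45, and rose by at least 2.01-fold from a level in background (adjusted p = 0.0252). Also higher by 2-fold or more were Speer6-ps1, Sipa1l2, 4933402N22Rik, Armcx6, Speer1, Rangrf, Unc5a, Speer5-ps1, Rpgr, Serp2, Tff1, Nmi, Sohlh1 and Cd24a. Higher by under 2-fold were Sdc1, Neil3, Ugt1a10, Gtf2ird1, Zfp286, Sort1, Cenpb, Gda, Prelid2, Ninl, Armcx3, Itm2a, Mfsd13a, Hnrnpll, Rab7b and Kyat3, of which Hnrnpll, Rab7b and Kyat3 turned to just below 0 when arrays were scaled to their median. Sort1 had another probe that read -0.18 in the same comparison, against 0.66 for the probe used.

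**Figure D3:**
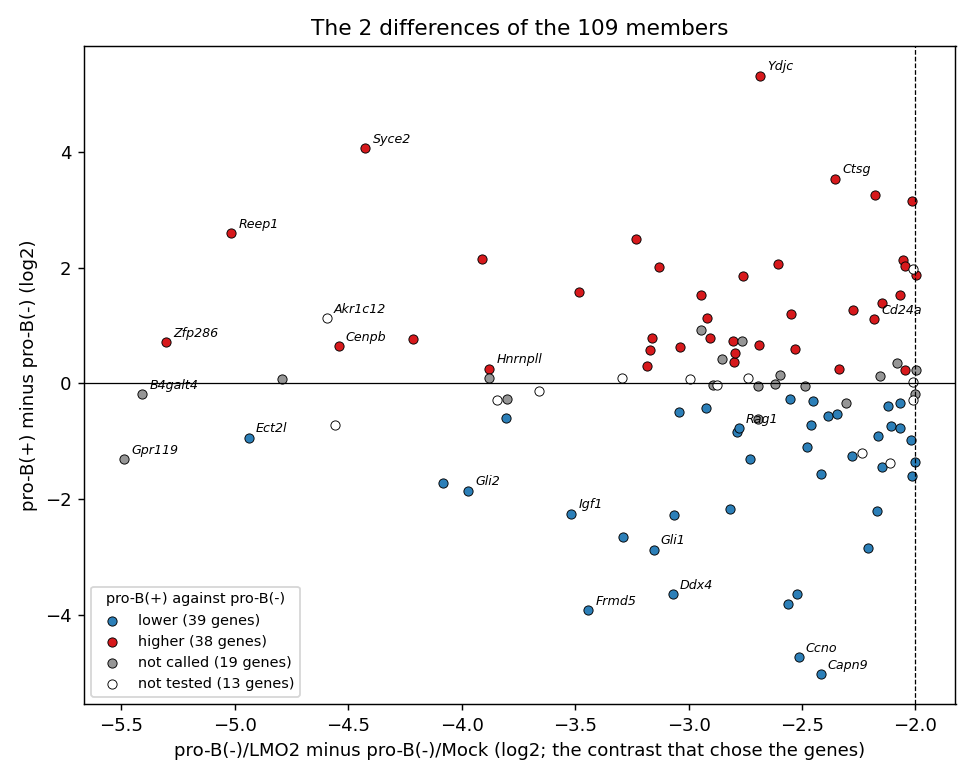
The difference between pro-B(-)/LMO2 and pro-B(-)/Mock that chose the genes (log2, horizontal axis, dashed line at the threshold of -2) against the difference between pro-B(+) and pro-B(-) (log2, vertical axis), with 1 point per member. Points spread above and below 0 on the vertical axis along the whole horizontal range, with 39 members called lower, 38 higher, 19 not called and 13 not tested.

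Of the 19 members not called, 18 were Gpr119, Efhd1, Tmem40, Vipr2, B4galt4, Mapk8, Trpa1, Stard8, St6gal1, Asap2, Tnik, Mamld1, Lpcat1, Phf19, Epha2, Nkd1, Lmo1 and Pdlim5. St6gal1, the sialyltransferase that caps N-glycans of B cells, read 1.11 and 1.08 in pro-B(-), 1.06 and 1.09 in pro-B(+), 0.85 and 0.86 in pro-B(-)/Mock and -2.07 and -2.01 in pro-B(-)/LMO2. Its parental difference was -0.02 (SE 0.037), beside a 7.43-fold lower signal with Lmo2. Gpr119 had the lowest difference of the 19, -1.31 (SE 0.46, adjusted p = 0.0648), although both pro-B(+) arrays lay below both pro-B(-) arrays. It was called lower with median scaling (adjusted p = 0.0204), quantile normalization (0.0337), normexp (1.61e-07), an intensity trend (0.0193), the 4 parental arrays alone (2.61e-04) or without pro-B(-)/LMO2 replicate 1 (1.25e-04) or 2 (1.06e-04), and over all alternatives its adjusted p ran up to 0.193. Lmo1, a LIM-only relative of Lmo2, read -1.15 and -1.03 in pro-B(-), -0.41 and -0.33 in pro-B(+), -3.70 and -3.93 in pro-B(-)/Mock and -7.67 and -5.47 in pro-B(-)/LMO2, where 1 array was above background. Its parental difference was 0.73 (SE 0.67), and its standard deviation was 1.56 in pro-B(-)/LMO2 against 0.08 in pro-B(-) and 0.06 in pro-B(+). Phf19 was called higher by limma with the 4 parental arrays alone (adjusted p = 0.0196). A missing call is therefore not a finding of equal levels.

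A group of 13 members could not be tested in the parental lines because no line had the gene above background on both arrays. Akr1c12, Ntn1, Obox3, Tceal1, Gabrg1, Pllp and Gcg were above background on none of the 4 parental arrays, and Gm6938, Chl1, Gm9999, Yes1, Speer3 and Gm829 on 1 or 2. Akr1c12, an aldo-keto reductase, read -7.78 and -7.42 in pro-B(-), -6.16 and -6.80 in pro-B(+), -3.78 and -2.81 in pro-B(-)/Mock and -7.66 and -8.13 in pro-B(-)/LMO2, so its signal stood out with the empty vector alone. Over all 109 members the mean with the empty vector was higher than in pro-B(-) by 2-fold or more in 27 and lower in 20, in a set whose rule asked for signal with the empty vector and not in pro-B(-). Obox3, Gabrg1, Ctsg, Mamld1 and Gm829 had pro-B(-)/Mock arrays that differed from each other by over 1 log2 unit, so their place in the set rests on a wide spread; in Gm829 the arrays read -2.36 and -5.29.

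The recombinase genes Rag1 and Rag2 encode the enzyme that cuts antigen-receptor segments and are neighbours on chromosome 2. Rag1 read -1.01 and -0.96 in pro-B(-), -1.73 and -1.79 in pro-B(+), -2.0 and -2.05 in pro-B(-)/Mock and -5.02 and -4.58 in pro-B(-)/LMO2, 6.86-fold lower with Lmo2. Rag2 read 0.62 and 0.60, -0.16 and -0.10, -0.31 and -0.31, and -2.43 and -2.40, 4.31-fold lower. Both fell in pro-B(+), Rag1 by 0.78 (SE 0.14, adjusted p = 0.00694) and Rag2 by 0.74 on the log2 scale (SE 0.037, adjusted p = 4.03e-05), and other probes gave -1.82 and -2.34 with Lmo2. The order was the same in both genes, with pro-B(-) highest, pro-B(+) and pro-B(-)/Mock lower and close together, and pro-B(-)/LMO2 far below. Dntt, whose enzyme adds bases at the same junctions, fell in pro-B(+) by 2.92 and went the other way with Lmo2, at 0.34 and 0.37 with the empty vector and 4.39 and 4.36 with Lmo2. The list with Rag1 and Rag2 also held Dntt, surrogate light chain genes and Cd79a and Cd79b: of its 6 others tested 4 fell and 1 rose in pro-B(+), beside 26.8% and 25.4% of all genes tested, and 2 were called lower and 3 higher with Lmo2, beside 37.4% and 30.7%. The 2 called lower with Lmo2, Vpreb1 (-0.51) and Igll1 (-1.31), also fell in pro-B(+), by 1.29 and by a fitted 2.62. Igll1 was in background in pro-B(+).

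The only other member on the list of B-lineage genes, Cd24a, did not follow Rag1 and Rag2. Cd24a, the heat-stable antigen of early B cells, read 0.94 and 0.95 in pro-B(-), 2.03 and 2.08 in pro-B(+), 2.35 and 2.37 in pro-B(-)/Mock and 0.17 and 0.18 in pro-B(-)/LMO2. It rose in pro-B(+) by 1.11 (SE 0.034, adjusted p = 6.52e-06) and was 4.54-fold lower with Lmo2. Of the 21 other B-lineage genes tested, 6 fell and 8 rose in pro-B(+), against the same shares of all genes. With Lmo2 against the empty vector 5 of 21 were called lower and 9 higher, beside 37.4% and 30.7% of all genes.

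Ctsg encodes cathepsin G, a protease of neutrophil granules, and read -4.91 and -5.02 in pro-B(-), -1.48 and -1.39 in pro-B(+), -5.55 and -4.20 in pro-B(-)/Mock and -7.47 and -6.99 in pro-B(-)/LMO2. It rose 11.5-fold in pro-B(+) (log2 3.53, SE 0.44, adjusted p = 0.00156) and was at least 2.20-fold lower with Lmo2. It was the member from a list of myeloid genes in which 19 of 22 others rose in pro-B(+), beside 25.4% of all genes, and 14 of 19 others were called higher and 1 lower with Lmo2, beside 30.7% and 37.4%. The granule genes Mpo and Prtn3, on the same list, had log2 differences of 4.38 and 2.78 with Lmo2. Erg, on the list of LMO2 partners, met the rule at -4.42 and was left out by name. None of the lists of other LMO2 partners, T-lineage, stem and progenitor, NK, erythroid and megakaryocytic, endothelial or stromal genes held a member. Names limited this in part, since the collagen genes of the stromal list could not become members. Bcl11b, a T-lineage factor that is not on the T-lineage list, met the rule at -3.10 and was left out by name.

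Gli1 and Gli2 are the transcription factors at the end of the Hedgehog pathway, in which a ligand bound to Patched frees Smoothened and so turns on the GLI proteins, with Gli1 itself a target. Gli1 read -0.92 and -0.74 in pro-B(-), -3.81 and -3.60 in pro-B(+), 0.43 and 0.47 in pro-B(-)/Mock and -2.84 and -2.57 in pro-B(-)/LMO2. Gli2 read -5.19 and -5.14, -6.73 and -7.30, -3.53 and -3.58, and -7.96 and -7.09. Gli1 fell 7.32-fold in pro-B(+) (SE 0.12 on the log2 scale, adjusted p = 1.98e-05) and was 8.90-fold lower with Lmo2, and Gli2 fell by at least 1.49-fold (adjusted p = 0.00552) and was at least 5.51-fold lower. In both genes the empty vector gave the highest signal of the 4 groups. Of 11 others of the pathway tested, 2 fell in pro-B(+) (Smo at -0.90 and Ptch1 at -0.64) and 6 rose, among them Gli3 (1.91) and the co-receptor Cdon (2.54). With Lmo2, 2 of 12 others were called lower and 6 higher: Smo was lower in this comparison too, at -0.39 (adjusted p = 3.76e-04), and Ptch1, another target, had a difference of -0.08. Over all genes the shares were 26.8% lower and 25.4% higher in pro-B(+), and 37.4% and 30.7% with Lmo2.

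The list of germ-cell and meiosis genes held 5 members. Ddx4, the Vasa RNA helicase of germ cells, read 0.94 and 0.87 in pro-B(-), -2.71 and -2.75 in pro-B(+), -0.02 and 0.07 in pro-B(-)/Mock and -2.87 and -3.22 in pro-B(-)/LMO2. It fell 12.4-fold in pro-B(+) (SE 0.11 on the log2 scale, adjusted p = 7.07e-06) and was 8.40-fold lower with Lmo2. Of 9 other germline genes known for methylated promoters, 7 fell and 1 rose in pro-B(+), beside 26.8% and 25.4% of all genes, but 4 of the 7 (Xlr3a, Xlr3b, Xlr4a and Xlr4b) are members of 1 gene family whose probes may share signal. With Lmo2, 0 of 3 others were called by limma, and 0 had an unadjusted p under 0.05. Syce2, of the central element of the synaptonemal complex in meiosis, went the opposite way in the parental lines, at -1.29 and -1.37, 2.72 and 2.75, -2.02 and -1.98, and -6.35 and -6.50. It rose 16.7-fold in pro-B(+) (SE 0.062, adjusted p = 8.35e-07) and was at least 16.2-fold lower with Lmo2. Sohlh1, a regulator of early gametogenesis, rose 2.18-fold in pro-B(+), whereas Cpeb1, which controls translation in oocytes, fell 1.65-fold. Obox3, an oocyte homeobox gene, was above background with the empty vector only. Of 30 germ-cell and meiosis genes on the array, 8 passed the background filter with the empty vector, and these 5 were among them; this list was written after the members were known, so the count only describes the list. Of its 5 other genes tested, 2 fell and 1 rose in pro-B(+), beside the same 26.8% and 25.4% of all genes.

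**Figure D4:**
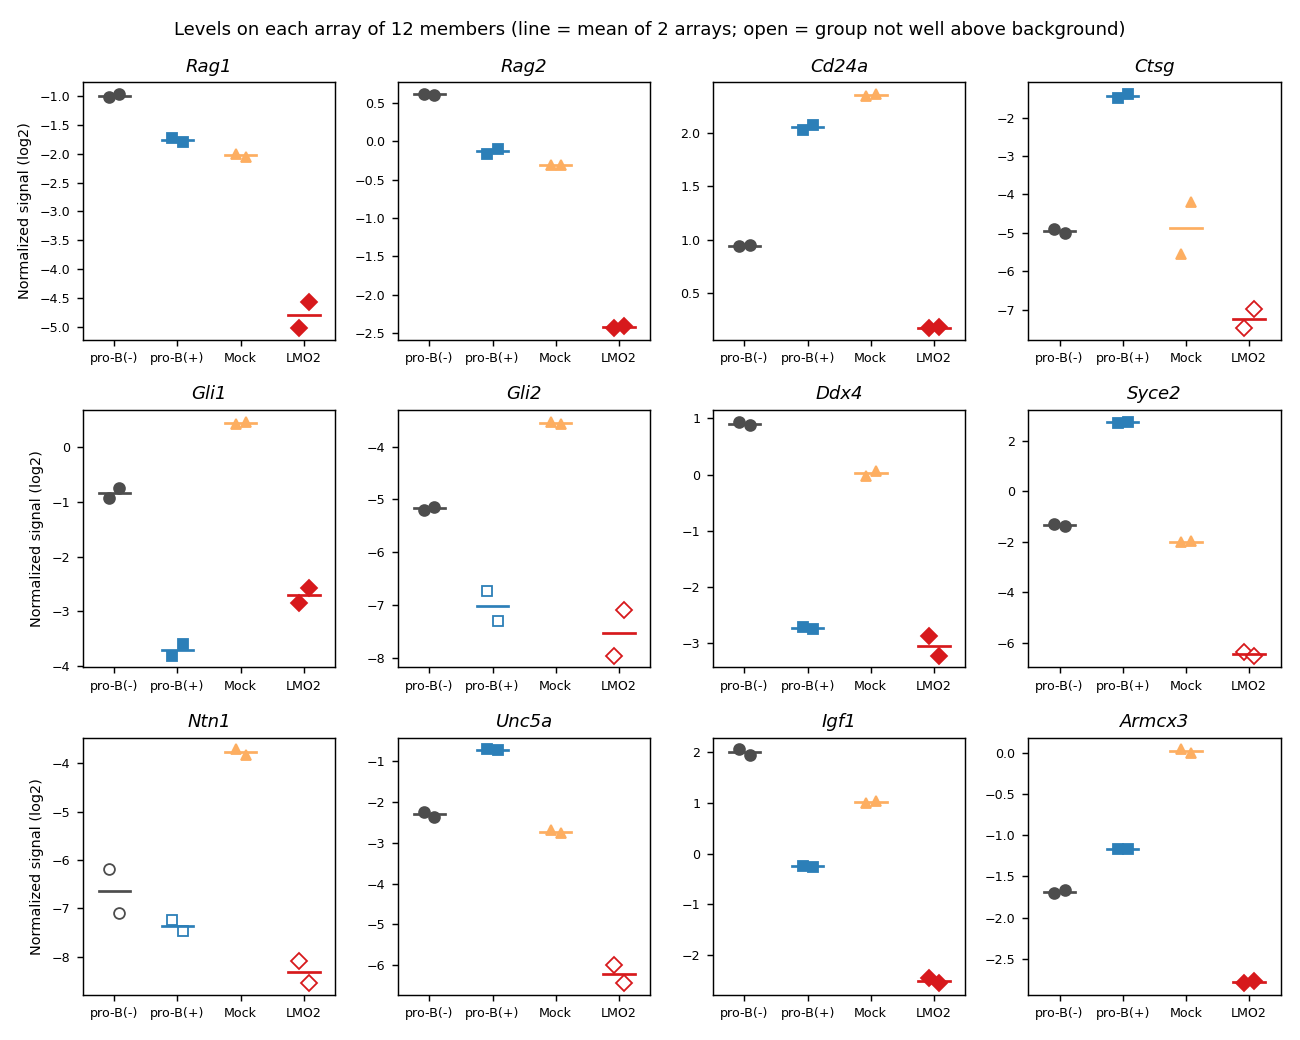
Normalized signal (log2, vertical axis, scaled for each gene) on each array of 12 members, with 2 points and their mean per group and open symbols where no array of a group was well above background. LMO2 has the lowest mean in every panel except that of Gli1, where pro-B(+) lies below it, although open symbols have no order among themselves, and pro-B(+) lies below pro-B(-) in Rag1, Rag2, Gli1, Gli2, Ddx4, Ntn1 (not tested) and Igf1.

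A secreted guidance cue and a receptor for it were both members. Ntn1, which encodes netrin-1, read -6.19 and -7.09 in pro-B(-), -7.24 and -7.47 in pro-B(+), -3.71 and -3.82 in pro-B(-)/Mock and -8.09 and -8.55 in pro-B(-)/LMO2, at least 4.76-fold lower with Lmo2 than with the empty vector. Unc5a, a netrin receptor, read -2.24 and -2.37, -0.71 and -0.74, -2.69 and -2.76, and -5.98 and -6.44, at least 9.76-fold lower, and rose 3.00-fold in pro-B(+) (adjusted p = 4.87e-04). Its relative Unc5b had a log2 difference of 0.71 with Lmo2, and of 4 other netrin genes tested with Lmo2, 0 were called lower and 2 higher, while 1 of 7 fell and 3 rose in pro-B(+). Over all genes the shares were 37.4% lower and 30.7% higher with Lmo2, and 26.8% and 25.4% in pro-B(+). The Wnt ligand Wnt10a read -0.21 and -0.18, -0.74 and -0.71, -0.86 and -0.86, and -3.39 and -3.02. Nkd1, a feedback inhibitor of Wnt signalling, read -2.33 and -2.41, -1.95 and -1.95, -3.91 and -3.67, and -6.39 and -6.89. Wnt10a fell in pro-B(+) by 0.53 (adjusted p = 0.0127). Nkd1 was not called (0.42, SE 0.17, adjusted p = 0.0924). Its arrays had a standard deviation of 0.35 in pro-B(-)/LMO2, against 0.06 in pro-B(-) and 0.005 in pro-B(+), so the missing call does not show equal levels.

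Some members were lower with Lmo2 without nearing background. Fabp5, a fatty-acid binding protein, read 7.18 and 6.98 in pro-B(-), 6.87 and 6.69 in pro-B(+), 7.14 and 7.09 in pro-B(-)/Mock and 4.70 and 4.63 in pro-B(-)/LMO2. Acss1, which makes acetyl-CoA in mitochondria, read 3.36 and 3.40, 3.00 and 2.99, 3.51 and 3.52, and 1.42 and 1.37. Ppic, a cyclophilin of the secretory pathway, read 2.44 and 2.45, 1.20 and 1.20, 1.86 and 1.94, and -0.39 and -0.37. In these genes both Lmo2 arrays lay below all other arrays, as in 89 of the 109 members, and the rule itself asked for a low mean against pro-B(-)/Mock. The 89 include members in background with Lmo2, such as Ntn1, whose values have no order against other values in background. Among Fabp5, Acss1 and Ppic, the pairs of arrays spread most in Fabp5. Sdc1, the heparan-sulfate proteoglycan known as a plasma-cell marker, read 1.08 and 1.03, 1.83 and 1.83, 1.73 and 1.70, and -1.19 and -1.19, and Ets2, an ETS factor, read 1.58 and 1.60, 0.84 and 0.81, 1.56 and 1.53, and -0.58 and -0.47.

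The Speer genes, a rodent family expressed in testis, showed a pattern of their own. Speer1 read -3.46 and -3.49 in pro-B(-), -1.64 and -1.57 in pro-B(+), 0.65 and 0.67 in pro-B(-)/Mock and -1.31 and -1.37 in pro-B(-)/LMO2. Its relative 4933402N22Rik read -4.04 and -3.94, -1.98 and -1.95, 0.31 and 0.32, and -1.76 and -1.70. Speer3, Speer5-ps1 and Speer6-ps1 were the other members of the family, with differences of -2.01, -2.07 and -2.05 with Lmo2. In these 5 genes the mean with Lmo2 stayed above that of pro-B(-). The copies are close in sequence and probes may share their signal, so the 5 genes cannot be counted as independent, nor can Slc28a2 and Slc28a2b, nucleoside transporter genes side by side on chromosome 2 with differences of -2.02 and -2.17.

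Some members lie next to each other. With genes ordered along the chromosomes by RefSeq, 13 neighbouring pairs of members, holding 25 genes, had 5 or fewer array genes between them. No array gene lay between Rag2 and Rag1, Slc28a2 and Slc28a2b, Snx24 and Ppic, and Armcx6 and Armcx3. Armcx3, whose protein sits on mitochondria, read -1.71 and -1.66 in pro-B(-), -1.16 and -1.17 in pro-B(+), 0.04 and -0.01 in pro-B(-)/Mock and -2.79 and -2.77 in pro-B(-)/LMO2. Armcx6 read -2.70 and -2.69, -0.68 and -0.69, -1.58 and -1.5, and -4.82 and -4.52. Both rose in pro-B(+), Armcx3 by 0.52 (adjusted p = 1.53e-04) and Armcx6 by 2.02 (adjusted p = 3.65e-05). Of 4 other Armcx and Tceal genes tested, 3 rose in pro-B(+) and 0 fell, beside 25.4% and 26.8% of all genes. With Lmo2, 1 of 4 others was called lower and 2 higher, beside 37.4% and 30.7%. In other pairs the genes between went their own way: between Ddx4 and Ccno, Plpp1 had a log2 difference of 1.52 with Lmo2, and between Pdlim5 and Kyat3, Gbp2 had 4.39. The X chromosome held 11 members of its 395 genes that could have been chosen (2.78%), the highest share of any chromosome, beside 0.874% of all such genes.

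The promoters of members are shown because LMO2 complexes are known at E boxes and GATA sequences. RefSeq start sites (GRCm38.p6) were found for 83 of the 109 members, and the 250 bases before each start were searched on both strands. An E box, CANNTG, was in 51 of the 83 (61.4%), beside 66.2% of all 27025 promoters and 57.5% of those of 10005 genes above background with the empty vector. CAGCTG, a special case of it, was in 14.5% (12.9% and 11.6%), GATAA in 18.1% (23.1% and 15.0%), the RUNX core TGTGGT in 15.7% (14.2% and 11.3%) and the ETS core CCGGAAG in 3.61% (7.14% and 13.8%). The median number of CG pairs was 8, beside 5 in all promoters and 15 in those of the genes above background, and it was 8 in members lower in pro-B(+) as well as in those higher. The 6 promoters below stand for the patterns described above, with E boxes in capitals: Rag1 and Rag2, which fell together, Gli2 and Ddx4, lower in pro-B(+) and with Lmo2, and Cenpb and Syce2, higher in pro-B(+) and lower with Lmo2. Their positions are chr2:101649533-101649782 (Rag1, minus strand), chr2:101624462-101624711 (Rag2, plus strand), chr1:119053620-119053869 (Gli2, minus strand), chr13:112652311-112652560 (Ddx4, minus strand), chr2:131180068-131180317 (Cenpb, minus strand) and chr8:84871861-84872110 (Syce2, plus strand).
Rag1: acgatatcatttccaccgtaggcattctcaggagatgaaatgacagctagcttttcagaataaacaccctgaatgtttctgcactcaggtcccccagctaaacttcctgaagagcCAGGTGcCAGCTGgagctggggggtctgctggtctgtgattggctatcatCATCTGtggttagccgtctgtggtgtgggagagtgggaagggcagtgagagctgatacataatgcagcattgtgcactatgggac
Rag2: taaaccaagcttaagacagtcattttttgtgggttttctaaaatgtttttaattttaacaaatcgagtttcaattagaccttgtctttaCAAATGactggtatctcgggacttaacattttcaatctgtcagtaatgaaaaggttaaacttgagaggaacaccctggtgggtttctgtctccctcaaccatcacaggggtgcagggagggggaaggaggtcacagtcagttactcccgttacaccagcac
Gli2: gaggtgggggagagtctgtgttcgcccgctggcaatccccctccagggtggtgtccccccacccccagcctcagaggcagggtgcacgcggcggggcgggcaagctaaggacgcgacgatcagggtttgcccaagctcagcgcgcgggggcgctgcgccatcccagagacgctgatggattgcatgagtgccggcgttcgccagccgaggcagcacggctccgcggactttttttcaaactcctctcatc
Ddx4: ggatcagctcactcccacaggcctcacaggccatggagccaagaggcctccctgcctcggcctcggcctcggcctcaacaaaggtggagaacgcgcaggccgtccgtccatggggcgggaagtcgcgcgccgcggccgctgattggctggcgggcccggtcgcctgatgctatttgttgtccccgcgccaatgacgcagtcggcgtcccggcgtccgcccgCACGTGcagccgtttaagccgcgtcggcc
Cenpb: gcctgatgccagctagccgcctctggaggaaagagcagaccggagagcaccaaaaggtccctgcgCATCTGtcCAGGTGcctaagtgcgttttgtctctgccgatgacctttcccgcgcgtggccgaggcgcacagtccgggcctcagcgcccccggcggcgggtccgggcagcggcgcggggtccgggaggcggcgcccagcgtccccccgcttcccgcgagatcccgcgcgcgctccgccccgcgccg
Syce2: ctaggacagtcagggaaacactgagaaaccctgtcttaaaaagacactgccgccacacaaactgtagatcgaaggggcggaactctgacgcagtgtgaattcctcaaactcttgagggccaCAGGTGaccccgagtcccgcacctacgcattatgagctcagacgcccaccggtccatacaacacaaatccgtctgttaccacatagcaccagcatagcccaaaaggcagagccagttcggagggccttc

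Rag1 held 3 E boxes in this window, 1 of them a CAGCTG, and 2 copies of the RUNX core, Cenpb 2 E boxes and 34 CG pairs, and Ddx4 1 E box and 31 CG pairs. Gli2 held no E box and 22 CG pairs, and the windows of Rag2 and Syce2 held 1 E box each, with 3 and 11 CG pairs. The promoters of Rag1 and Rag2 were poor in CG and those of Gli2, Ddx4 and Cenpb rich in it, although all 6 genes were lower with Lmo2. A match is a run of letters in a window and not a binding site.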

How the data were processed

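Gene expression was measured in 8 samples on Agilent whole mouse genome arrays (1 colour, Cy3). Groups and replicate numbers came from the sample titles. The paper calls the replicates behind its comparison of pro-B(+) and pro-B(-) independent and biological. Whether they were separate cultures of each line is not stated. The p-values therefore measure only the spread between these arrays, part or all of which may be technical. The deposited scanner files hold spot intensity from Feature Extraction, background-subtracted per the file headers, and 0 or 1 flags for spots well above background. The authors also deposited a log2 matrix made by 75th percentile normalization in GeneSpring, which chose the members. The own normalization used here was log2 of intensity over its 75th percentile on the array. The deposited values differed from it by a median of -0.0091 to -0.0036 on an array. With that offset taken off, they lay within 0.01 of it for over 99.6% of probes. No comparison columns were used.

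Control and outlier spots were left out and spots of a probe averaged, which left 39378 probes. RefSeq names (GRCm38.p6), matched by accession, were found for 26550 probes (67.4%). The array was annotated on mm9, so coordinates are given only for RefSeq promoters. The share of probes well above background was 56.5% to 61.2%. The 75th percentile intensity was 603.8 to 948.5, and no spot was saturated. Precision is limited by having 2 arrays a group.

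Pro-B(+) and pro-B(-) were compared with limma 3.58.1 (R 4.3.3) in 1 fit of 4 group means, over probes well above background on both arrays of either line (23467 probes), with Benjamini-Hochberg adjustment over them; the moderated spread came from all probes above background in at least 1 group. The step was tested on simulated data. Where a group was above background on no array, folds are lower limits. For the members, comparisons that share arrays with the rule are levels without a test. Calls with Lmo2 for other genes of the lists and over all genes came from the same fit. They covered probes well above background on both arrays of either transductant group, with a separate Benjamini-Hochberg adjustment. Same-numbered arrays did not deviate together (correlations of -0.03 to 0.05), so the replicate number was used as a block only as an alternative. Alternatives covered values, scaling, normalization, background, filters, probe, variance and each array left out. The planned normexp correction used the median spot signal, because the files used here hold no mean signal. The count of members lower or higher by 2-fold or more was followed through the alternatives after the data were seen. Members, gene lists and comparisons were chosen with earlier results of these data known, and the lists of Hedgehog, netrin, germ-cell, V(D)J, Armcx and Speer genes after the members were seen. Values by array are given for the 10 members with the lowest difference measured on all 4 transductant arrays and the 5 lowest of the rest, the 8 lowest and 8 highest fitted differences in pro-B(+), members of the gene lists, those next to the threshold and some others named for their role after their values were seen. A member among these is not reported here.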

Additional observations from a re-analysis of the deposited data

How the results depend on the processing

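The membership depended on the values and on the threshold: 22 genes met the rule with normexp background correction, 186 at a threshold of -1.5 and 35 at -3, against 109. Leaving out 1 transductant array gave 107 to 222, with 222 and 197 without pro-B(-)/Mock replicate 1 or 2, where both the background filter and the difference rest on 1 Mock array. The counts of members lower and higher in pro-B(+) stayed within 1.5 times of 39 and 38 in every alternative run, and with the replicate number as a block, whose arrays did not deviate together, they were 39 and 39. Members lower by 2-fold or more numbered 14 with normexp, against 22. The median of all genes moved by -0.28 between the parental lines when arrays were scaled to their median; with it Hnrnpll turned to -0.027, Lpcat1 to -0.132, Rab7b to -0.042, Mamld1 to -0.160, Kyat3 to -0.048, Phf19 to -0.050 and Tnik to -0.213. Quantile normalization turned Tnik to -0.182, St6gal1 to 0.007, Lpcat1 to -0.049 and Mamld1 to -0.218, and normexp turned the same genes to -0.084, 0.005, -0.070 and -0.040. With 1 parental array left out, differences ran from -0.135 to 0.277 in Tnik, -0.209 to 0.106 in Trpa1, -0.086 to 0.073 in Asap2 and -0.072 to 0.319 in Mamld1. Gpr119, not called, was called lower under 7 alternatives. Of the genes that turned, Hnrnpll, Rab7b and Kyat3 had been called. The cause was not tested. Gene names from the scanner files were not run, since those used here hold none. Genes in background with Lmo2 have only lower limits.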

Other observations

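The 6 genes left out by name had log2 differences with Lmo2 from -5.54 (Hoxa11) to -2.99 (Hoxc4). In pro-B(+), Hoxc4 fell by 5.83, Hoxa11 by 3.95, Hoxa11os by 3.81, Erg by 1.32 and Bcl11b by 0.76 on the log2 scale, whereas Bmp7 rose by 1.23. A further 46 probes that carry no RefSeq name met the same rule, and 43 genes passed the threshold but were above background on only 1 pro-B(-)/Mock array. In the opposite direction, 232 of the 12466 genes that could have been chosen were higher with Lmo2 by 4-fold or more. That count leaves out genes in background with the empty vector, such as Tcf7 and Il2ra, with log2 differences of 9.08 and 8.41. Chromosome 15 held none of the 109 members among 505 genes that could have been chosen.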
